A study of Mus musculus with 4 samples.

Results

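Connective tissue growth factor (Ctgf), Cyr61, Amotl2 and Ankrd1, which are targets of the co-activator YAP and the TEAD transcription factors, and Acta2, Tagln, Myl9, Actg2, Cnn1 and Tpm1, which are smooth-muscle type actin cytoskeleton genes of serum response factor (SRF) and TGF-β, make up the set described here. These 10 genes were found by exact symbol among the 23235 gene symbols of the RNA-seq tables. They were proposed as a set because some of them were higher and some lower with RDF in these same samples, so their RDF and DMSO values are a description and were not tested.

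The samples were 2 DMSO and 2 RDF samples of HG165, a single androgenetic haploid embryonic stem cell (haESC) line whose nuclear genome is of paternal origin only. RDF combines Repsox, an inhibitor of the TGF-β pathway, DMH1, an inhibitor of the BMP pathway, and Forskolin, an activator of adenylate cyclase, and DMSO is the solvent given to the control cells. All 4 samples came from the same line, and the general culture medium of the study was ES medium with serum and leukemia inhibitory factor. The labels describe culture on feeder cells, whereas the study's methods state that most experiments were done without them, and RNA-seq is not among the exceptions they list. Neither source gives the dose, the length of treatment or a sort for haploid cells for the sequenced samples.

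YAP and its relative TAZ (Wwtr1) are held in the cytoplasm by the kinases of the Hippo pathway, and when released they enter the nucleus and activate genes with TEAD factors. SRF binds CArG boxes in the promoters of actin cytoskeleton genes. Its myocardin-related co-activators are released when actin monomers are drawn into filaments, so both systems respond to tension in the cell. Ctgf and Cyr61 encode secreted matrix-associated proteins, Amotl2 encodes an angiomotin that binds YAP, and the SRF genes encode parts of the contractile apparatus of smooth muscle.

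Promoter sequence from RefSeq (GRCm38.p6), 250 bases before to 50 bases after each start site, was at hand for 7 of the 10 genes. The genes without an entry are Ctgf, Actg2 and Tagln. The windows of the YAP/TEAD targets are shown because each held the TEAD motif GGAATG on 1 of the strands, printed in capitals (CATTCC where it lies on the other strand):
Cyr61 (chr3:145649986-145650235, minus strand): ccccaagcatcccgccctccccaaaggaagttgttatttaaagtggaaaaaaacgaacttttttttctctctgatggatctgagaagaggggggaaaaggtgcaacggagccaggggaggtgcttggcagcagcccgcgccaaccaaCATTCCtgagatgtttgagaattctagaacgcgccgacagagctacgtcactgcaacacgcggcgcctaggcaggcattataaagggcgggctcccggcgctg
Amotl2 (chr9:102717554-102717803, plus strand): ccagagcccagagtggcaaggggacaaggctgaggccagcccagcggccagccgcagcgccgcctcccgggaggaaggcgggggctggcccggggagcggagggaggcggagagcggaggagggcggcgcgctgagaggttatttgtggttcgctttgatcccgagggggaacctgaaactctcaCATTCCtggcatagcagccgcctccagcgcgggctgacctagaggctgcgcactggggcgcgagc
Ankrd1 (chr19:36119945-36120094, minus strand): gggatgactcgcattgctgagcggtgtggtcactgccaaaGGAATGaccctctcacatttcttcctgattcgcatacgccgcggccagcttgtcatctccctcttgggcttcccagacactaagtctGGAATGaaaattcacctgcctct
The motif began at position -103 from the start in Cyr61, at -65 in Amotl2, and at -210 and -123 in Ankrd1. Of the SRF genes, Acta2 and Myl9 are shown because their windows held matches to the CArG box, a CC and a GG on either side of a run of A and T, and Tpm1 because it held the TEAD motif close to the start. Capitals mark the TEAD motif, the CArG box and its matches with 1 mismatch:
Acta2 (chr19:34255374-34255623, minus strand): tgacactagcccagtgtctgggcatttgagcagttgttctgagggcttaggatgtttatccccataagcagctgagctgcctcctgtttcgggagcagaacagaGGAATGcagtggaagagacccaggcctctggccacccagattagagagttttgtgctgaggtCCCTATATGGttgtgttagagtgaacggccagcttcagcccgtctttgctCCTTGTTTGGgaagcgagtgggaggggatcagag
Myl9 (chr2:156775284-156775403, plus strand): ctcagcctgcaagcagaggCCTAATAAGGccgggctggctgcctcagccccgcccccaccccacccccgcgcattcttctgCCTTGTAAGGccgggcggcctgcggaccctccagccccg
Tpm1 (chr9:67049214-67049333, minus strand): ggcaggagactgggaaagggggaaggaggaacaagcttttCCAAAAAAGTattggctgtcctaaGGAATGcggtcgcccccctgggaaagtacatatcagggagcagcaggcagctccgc
In the Myl9 window the CArG box itself began at -161 and a match with 1 mismatch at -99. The Acta2 window had no exact CArG box and 2 matches with 1 mismatch, at -84 and -34, and a TEAD motif at -146. The Tpm1 window had a TEAD motif at -56 and CArG matches with 1 mismatch at -221 and -80, the former outside the stretch printed. None of these motifs was found in the Cnn1 window. Motifs were searched on both strands of the whole window, and no match of one overlapped a match of another in these windows.

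Across the 32851 promoter windows used for comparison, each of 300 bases and with 1 chromosome left out, 14.7% held GGAATG, against 5 of the 7 windows here. An exact CArG box was in 1.63% of the comparison windows and in 1 of the 7. A CArG box with at most 1 mismatch was in 21.1% of them and in 3 of the 7. The core of the cAMP response element, TGACG, was in 20.8% of the comparison windows and in the Cyr61 window (at -58) and the Tpm1 window (at -201). These counts describe letters in short windows, and binding was not measured.

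**Figure D1:**
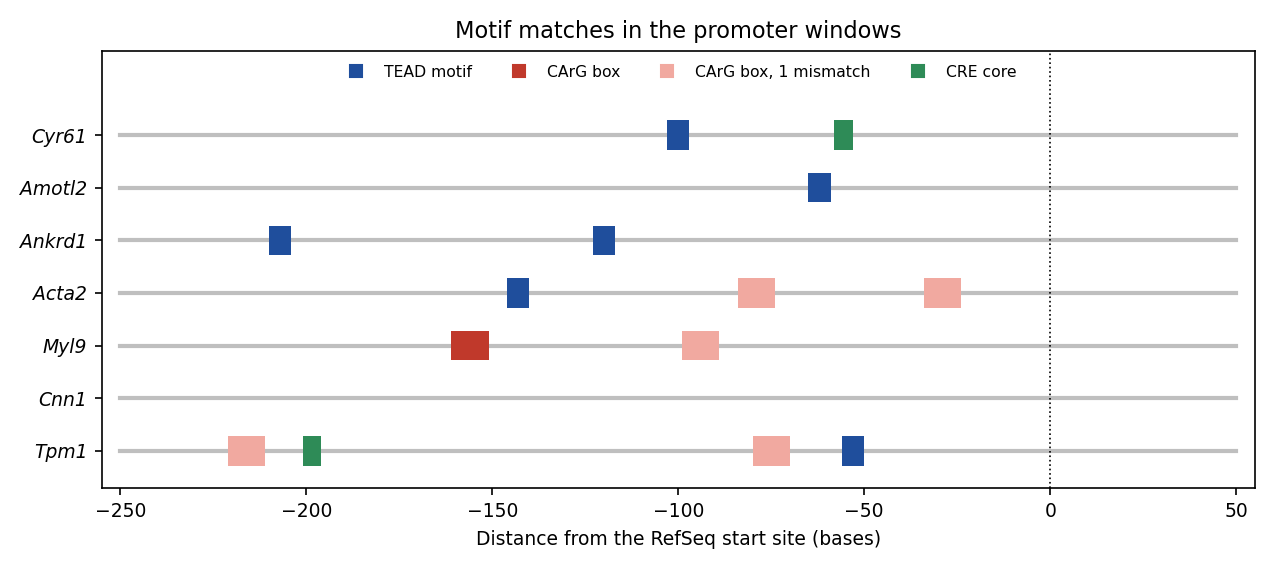
Motif matches in the 7 promoter windows, with the distance from the RefSeq start site in bases on the horizontal axis and one line per gene; coloured blocks mark the TEAD motif, the CArG box, CArG matches with 1 mismatch and the cAMP response element core. The TEAD motif appears in Cyr61, Amotl2, Ankrd1, Acta2 and Tpm1, the exact CArG box in Myl9 alone, and the Cnn1 line is empty.

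Expression was given as FPKM, fragments scaled to transcript length and library size, so that levels can be compared between genes per length. The files hold no fragment counts, and from the steps between low values the depth was estimated at 9700000 and 11120000 fragments for the DMSO samples and 12340000 and 11220000 for the RDF samples. Of the 23235 symbols, 11733 averaged 1 FPKM or more and were tested with limma on log2(FPKM + 1). Differences below are on this scale, RDF minus DMSO, with limma's standard error (SE), and the added 1 FPKM makes the differences of low genes smaller than their FPKM ratios. All 7 stem cell markers examined (Pou5f1, Nanog, Sox2, Zfp42, Esrrb, Dppa5a and Tdgf1) passed the filter, with mean levels from 25.9 FPKM (Zfp42 in DMSO) upwards, so the defining markers of the labelled cell type were present. Nothing states that the replicates were separate cultures, so p-values measure only the spread between these samples. In bulk RNA, fewer cells of a type and less RNA per cell cannot be told apart.

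Of the 10 genes, 8 passed the filter, and Ankrd1 and Actg2 did not. Acta2 and Myl9 averaged under 1 FPKM in RDF (0.38 and 0.794 FPKM). They passed only through their DMSO values (means of 3.57 and 1.67 FPKM). Among the 8, both RDF values lay above both DMSO values for Ctgf, Cyr61, Amotl2 and Cnn1, and below them for Acta2, Tagln and Myl9, while the ranges of Tpm1 overlapped. Over all genes tested the corresponding shares were 37.1% above and 28.5% below. As the genes were chosen on this contrast, nothing is read from these counts. The median difference was 0.98 for the 3 YAP/TEAD targets tested and -0.61 for the 5 SRF genes tested, beside 0.026 for all genes tested. These medians describe the values that chose the set, and nothing is read from them either. The SRF median is the value of Myl9, a gene of low level.

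Ctgf, a secreted growth factor-binding matrix protein (ENSMUSG00000019997.4, NCBIM37 chr10:24315248-24318489, plus strand), measured 109 and 111 FPKM with DMSO and 212 and 201 FPKM with RDF. The 2 conditions did not overlap, and the samples of each lay close together. The means were 109.9 ± 1.7 and 206 ± 7.74 FPKM (SD, n = 2 each), 1.88-fold higher with RDF, a difference of 0.90 (SE 0.0552). Ctgf was among the most expressed genes in both conditions, above 92.4% of tested genes in DMSO and 95.9% in RDF. An antisense-strand lincRNA, Gm15270, overlaps 1667 bases of the Ctgf locus. It is not among the symbols used here, and it is not stated whether the expression estimates used the strand.

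Cyr61, the closest relative of Ctgf among these genes (ENSMUSG00000028195.3, chr3:145309935-145312949, minus strand), was at 90.1 and 96.2 FPKM in DMSO and at 199.7 and 210.1 FPKM in RDF. Both RDF samples were well above both DMSO samples. The means of 93.1 ± 4.34 and 205 ± 7.35 FPKM (SD, n = 2 each) differed by 1.13 (SE 0.0603), or 2.2-fold. The level of Ctgf relative to Cyr61 was 1.21 and 1.15 in the DMSO samples and 1.06 and 0.955 in the RDF samples. The 2 genes stood near the same level in every sample, with a lower ratio in both RDF samples. Among the 10 genes Cyr61 had the largest positive difference.

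Amotl2, an angiomotin family member that binds YAP and is itself a YAP target (ENSMUSG00000032531.8, chr9:102619002-102635748, plus strand, 14 annotated transcripts), measured 47.8 and 46.8 FPKM in DMSO and 90.6 and 98 FPKM in RDF. Again the conditions did not overlap. Mean levels were 47.3 ± 0.721 and 94.3 ± 5.26 FPKM (SD, n = 2 each), a difference of 0.98 (SE 0.0603) and a ratio of 1.99. The ratio of Ctgf to Amotl2 was 2.27 and 2.37 in DMSO and 2.34 and 2.05 in RDF. The ratio of Ctgf to Amotl2 thus overlapped between the conditions, whereas that of Ctgf to Cyr61 was lower in both RDF samples.

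Ankrd1, an ankyrin repeat protein of striated muscle and a widely used YAP target (ENSMUSG00000024803.8, chr19:36186455-36194334, minus strand), was close to the limit of detection. Its values were 0.0517 and 0.168 FPKM in DMSO and 0.119 and 0.0848 FPKM in RDF, which correspond to an estimated 0.886 and 3.3 fragments and 2.6 and 1.68 fragments. The conditions overlapped, and no difference was detectable at this depth.

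**Figure D2:**
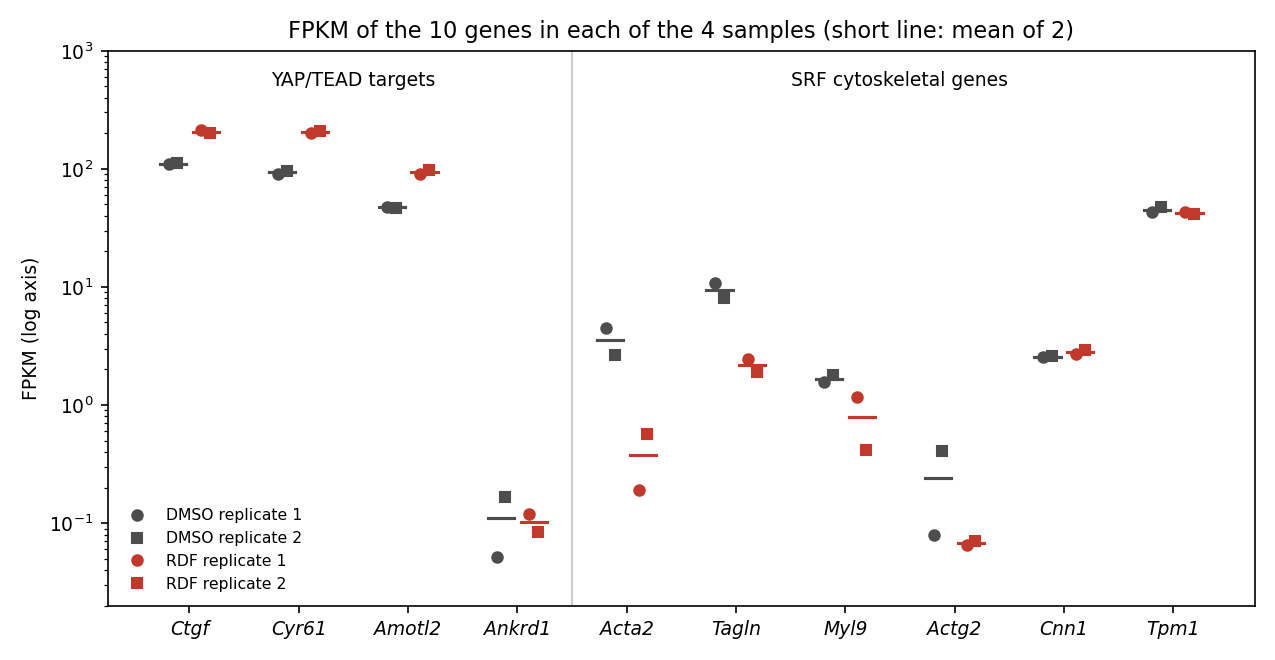
FPKM of the 10 genes on a log axis, with DMSO samples in grey and RDF samples in red, circles for replicate 1, squares for replicate 2 and short lines for the mean of 2. Ctgf, Cyr61 and Amotl2 stand between 46.8 and 111 FPKM in DMSO and between 90.6 and 212 FPKM in RDF, whereas Acta2 and Tagln lie lower with RDF, and Ankrd1 and Actg2 are at 0.408 FPKM or lower.

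Acta2, smooth muscle α-actin (ENSMUSG00000035783.8, chr19:34315580-34329826, minus strand), showed the opposite pattern. It measured 4.49 and 2.66 FPKM in DMSO and 0.192 and 0.568 FPKM in RDF. The lowest DMSO value was 4.68 times the highest RDF value, although replicates of the same condition differed by 1.69-fold in DMSO and 2.95-fold in RDF. The means were 3.57 ± 1.29 and 0.38 ± 0.266 FPKM (SD, n = 2 each), 9.4-fold lower with RDF, with a difference of -1.71 (SE 0.228). The RDF values rest on an estimated 4.23 and 11.4 fragments and the DMSO values on 77.5 and 52.6, so the fold is imprecise. With 0.1 FPKM added in place of 1 FPKM the difference was -3.01.

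Tagln, transgelin, an actin-binding protein of smooth muscle (ENSMUSG00000032085.4, chr9:45737711-45744141, minus strand), measured 10.7 and 7.99 FPKM in DMSO and 2.44 and 1.92 FPKM in RDF. Both RDF samples were below both DMSO samples. The means of 9.36 ± 1.94 and 2.18 ± 0.365 FPKM (SD, n = 2 each) gave a 4.3-fold lower level with RDF and a difference of -1.70 (SE 0.153). Tagln shares 65 bases with the neighbouring gene Pcsk7 on the other strand, which lay between 2.04 and 2.31 FPKM in the 4 samples. Tagln stood near the middle of tested genes in DMSO, above 48.7% of them, and above 13.8% in RDF.

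Myl9, the regulatory light chain of smooth muscle myosin (ENSMUSG00000067818.6, chr2:156601156-156607394, plus strand), measured 1.56 and 1.78 FPKM in DMSO and 1.17 and 0.415 FPKM in RDF. The RDF values were both lower but far apart from each other. The means were 1.67 ± 0.16 and 0.794 ± 0.535 FPKM (SD, n = 2 each), a difference of -0.61 (SE 0.211). Without RDF replicate 2 the difference was -0.30, and without RDF replicate 1 it was -0.91. The estimated fragments were 17 and 22.4 in DMSO and 16.3 and 5.26 in RDF, so that in number of fragments RDF replicate 1 stood close to DMSO replicate 1. The estimated depth of RDF replicate 1 was larger (12340000 fragments, beside 9700000 in DMSO replicate 1), so a like number of fragments there stands for a lower level.

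Actg2, the enteric smooth muscle γ-actin (ENSMUSG00000059430.8, chr6:83462899-83486259, minus strand), was barely detected. It was at 0.0788 and 0.408 FPKM in DMSO and 0.0655 and 0.0706 FPKM in RDF, an estimated 1.02 and 6.04 fragments and 1.08 and 1.06 fragments. Although both RDF values lay below both DMSO values, DMSO replicate 1 differed from the RDF samples by less than 1 estimated fragment, and only DMSO replicate 2 stood apart.

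Cnn1 and Tpm1 did not share the pattern of Acta2 and Tagln. Cnn1, the smooth muscle calponin (ENSMUSG00000001349.4, chr9:21903725-21914074, plus strand), was at 2.54 and 2.59 FPKM in DMSO and 2.72 and 2.92 FPKM in RDF. The RDF samples were marginally above the DMSO samples, with means of 2.57 ± 0.0409 and 2.82 ± 0.141 FPKM (SD, n = 2 each) and a difference of 0.10 (SE 0.097), about the size of its standard error. With quantile normalization the Cnn1 difference was 0.03. Tpm1, a tropomyosin that is made in muscle and non-muscle forms (ENSMUSG00000032366.9, chr9:66870397-66897213, minus strand, 21 annotated transcripts), was at 42.9 and 47.1 FPKM in DMSO and 43 and 41.4 FPKM in RDF. DMSO replicate 1 lay between the RDF samples, and the difference was -0.09 (SE 0.0663). The values do not separate the Tpm1 transcripts, so muscle and non-muscle forms are summed.

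Ratios between genes within a sample do not depend on library size, and are given for Ctgf, Tagln and Acta2 as a further description of values that chose the set. Ctgf was 10.1 and 13.9 times as abundant as Tagln in the DMSO samples and 86.8 and 105 times as abundant in the RDF samples. Relative to Acta2 it was 24.2 and 41.8 times as abundant in DMSO and 1101 and 353 times in RDF. The ratio of Tagln to Acta2 was 2.39 and 3.01 in DMSO and 12.7 and 3.38 in RDF, where RDF replicate 1, with the lowest estimated number of Acta2 fragments, stood apart from the other samples.

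**Figure D3:**
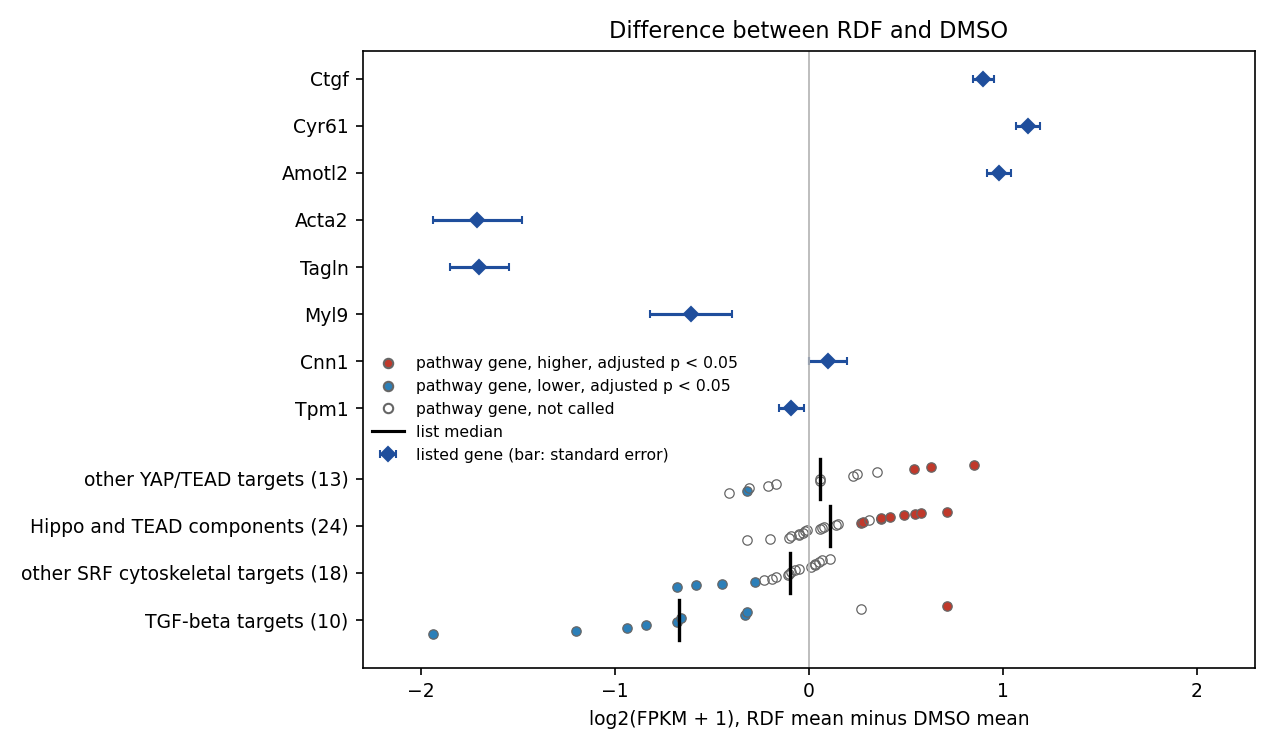
Difference between RDF and DMSO on the log2(FPKM + 1) scale: diamonds are the 8 genes of the set with a mean of at least 1 FPKM (bars: limma's standard error), circles are the tested genes of 4 pathway lists (filled where the adjusted p is under 0.05), and vertical strokes are list medians. The 3 YAP/TEAD targets lie between 0.90 and 1.13 and Acta2 and Tagln at -1.71 and -1.70, while most genes of the other lists lie closer to 0.

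The wider pathways were then examined with limma over all 11733 genes, of which 21.6% changed at an adjusted p under 0.05 (13.3% higher and 8.28% lower with RDF). Other YAP/TEAD targets moved in both directions. Of 18 listed, 13 were tested, 3 rose, 1 fell and 9 did not pass the test, and their median difference was 0.06. Igfbp3, an insulin-like growth factor-binding protein, rose from 8.34 ± 0.917 to 15.8 ± 1.07 FPKM (difference 0.85, adjusted p = 0.00373 by limma). Jub, which encodes the LATS-binding LIM protein Ajuba, rose by 0.63 (adjusted p = 0.00397), and the kinase gene Nuak2 rose by 0.54 (adjusted p = 0.0186). Gadd45a, a growth arrest and DNA damage gene, fell by 0.32 on the log2 scale (adjusted p = 0.0211). The calls of Nuak2 and Gadd45a were lost without DMSO replicate 1 (adjusted p = 0.0501 and 0.0592), RDF replicate 1 (0.063 and 0.0571) or RDF replicate 2 (0.11 and 0.115), and without a filter on low values (0.0553 and 0.0516).

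Among 24 tested genes of the Hippo pathway and the TEAD family, 9 rose and 0 fell, with a median difference of 0.11. At an unadjusted p under 0.05, limma gave 9 higher and 2 lower. The largest differences were those of Frmd6, an upstream Hippo regulator (0.71, adjusted p = 0.00534), the kinase Taok1 (0.58, adjusted p = 0.00831), the TEAD co-factor Vgll4 (0.55, adjusted p = 0.0188) and the LATS co-activator Mob1b (0.49, adjusted p = 0.0256). The number that rose depended on the samples, and was 7 without DMSO replicate 1, 2 without DMSO replicate 2, 1 without RDF replicate 1 and 0 without RDF replicate 2. Without a filter, where 2 rose, Vgll4 and Mob1b lost their calls (adjusted p = 0.0582 and 0.0709). Yap1 rose from 35 ± 1.95 to 42.4 ± 0.55 FPKM (difference 0.27, adjusted p = 0.0295 by limma), and this call was lost without DMSO replicate 2 (adjusted p = 0.102), RDF replicate 1 (0.117) or RDF replicate 2 (0.143), without a filter on low values (0.057) and without the mean-variance trend (0.0624). Wwtr1, which encodes TAZ, was at 28.5 ± 0.708 and 31.4 ± 0.48 FPKM (adjusted p = 0.138). Of the TEAD genes, Tead2 was the most abundant, at 54.5 ± 1.74 and 50.8 ± 0.369 FPKM (adjusted p = 0.234). Tead1, Tead3 and Tead4 had differences of -0.02, 0.15 and -0.20 and did not pass the test (adjusted p = 0.856, 0.458 and 0.0918). The transcript levels say nothing of where YAP protein was.

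Srf itself was at 14.5 ± 1.88 and 16.8 ± 0.435 FPKM (difference 0.20, adjusted p = 0.178 by limma). Of its co-activators, Mkl1 (MRTF-A) had a difference of -0.02 (adjusted p = 0.935). Mkl2 (MRTF-B) fell from 2.89 ± 0.168 to 1.79 ± 0.0171 FPKM (adjusted p = 0.0228), a call lost without DMSO replicate 1 (adjusted p = 0.0761), RDF replicate 1 (0.105) or RDF replicate 2 (0.106), and without a filter (0.0558). Myocd, the myocardin gene of muscle, lay between 0.034 and 0.0491 FPKM in all samples.

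**Figure D4:**
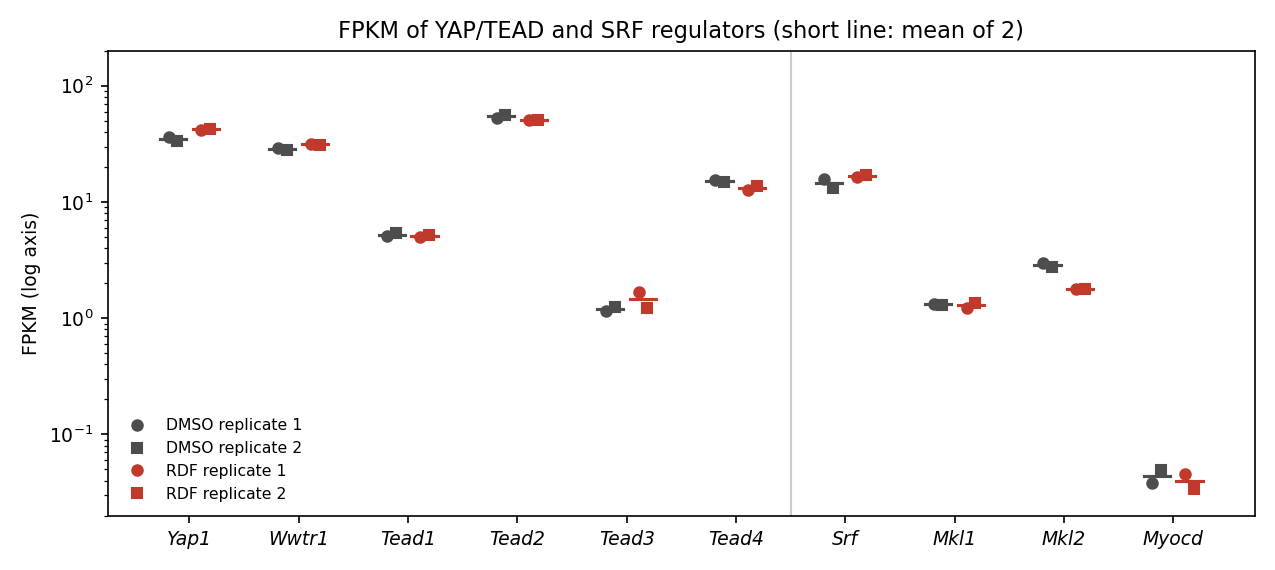
FPKM on a log axis of the YAP/TEAD factors (left) and of Srf and its co-activators (right), DMSO samples in grey and RDF samples in red, circles for replicate 1, squares for replicate 2 and short lines for the mean of 2. Yap1 is slightly higher with RDF (35 against 42.4 FPKM), Mkl2 is lower (2.89 against 1.79 FPKM), and Myocd is under 0.05 FPKM in every sample.

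Other cytoskeletal targets of SRF had smaller differences than Acta2 and Tagln. Of 25 listed, 18 were tested, 4 fell and 0 rose, also at an unadjusted p under 0.05, where limma gave 5 lower and 0 higher, and the median was -0.09. Fhl1, a LIM protein of muscle, fell from 35.3 ± 0.677 to 21.6 ± 0.0323 FPKM (difference -0.68, adjusted p = 0.00164). Pdlim7, a PDZ and LIM adaptor on actin filaments, fell by 0.58 on the log2 scale (adjusted p = 0.00219), Tagln2 by 0.45 (adjusted p = 0.00534) and the LIM protein Csrp1 by 0.28 (adjusted p = 0.017). Without RDF replicate 1 only 2 of the list fell, with Tagln2 at an adjusted p of 0.054 and Csrp1 at 0.0726, and without RDF replicate 2 Csrp1 was at 0.107.

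The genes were also set beside the other members of their families. The cytoplasmic actins Actb and Actg1, at 1895 ± 91.9 and 1601 ± 60.3 FPKM in DMSO, had differences of 0.03 and 0.11 (adjusted p = 0.794 and 0.326). The striated muscle actins Acta1 and Actc1 were near absent, Acta1 between 0.131 and 0.409 FPKM and Actc1 listed at 0 in all samples. Tagln2, at 195 ± 2.28 FPKM in DMSO and thus far above Tagln, fell as given above, and Tagln3 had a difference of -0.16 (adjusted p = 0.576). Of the calponins, Cnn2 had a difference of 0.07 (adjusted p = 0.473) and Cnn3 rose by 0.34 (adjusted p = 0.00883), a call lost without RDF replicate 1 (adjusted p = 0.0666) or RDF replicate 2 (0.0769). Of the tropomyosins, Tpm2 had a difference of -0.05 (adjusted p = 0.755), Tpm3 fell by 0.27 on the log2 scale (adjusted p = 0.0484) and Tpm4 had a difference of -0.19 (adjusted p = 0.0537). The call of Tpm3 was lost without DMSO replicate 2 (adjusted p = 0.144), RDF replicate 1 (0.212) or RDF replicate 2 (0.105), without a filter (0.0984), with quantile normalization (0.0768) and without the trend (0.0923). Amotl1, an angiomotin gene like Amotl2, rose by 0.37 (adjusted p = 0.0352). Its call was lost without any one of the 4 samples (differences from 0.32 to 0.41), without a filter (adjusted p = 0.0814) and with quantile normalization (0.054). Amot, the other angiomotin gene listed, had a difference of -0.05 (adjusted p = 0.813 by limma). Among all 14 tested paralogs, 2 rose and 2 fell.

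The TGF-β pathway, which Repsox inhibits, also controls Acta2, Tagln and Ctgf in many cells. The lists of TGF-β targets and immediate early genes, like the others, were chosen with earlier results of these data known. Their counts are therefore a description and no independent test. Over all genes tested, 13.3% rose and 8.28% fell, with a median difference of 0.026. Of 10 listed TGF-β targets, all tested, 8 fell and 1 rose, with a median difference of -0.67, and 5 fell without RDF replicate 1 or RDF replicate 2. The inhibitory Smad gene Smad7 fell by 1.20 on the log2 scale (adjusted p = 0.000957 by limma), the Smad repressor gene Skil by 0.94 (adjusted p = 0.00142) and the latent TGF-β binding protein gene Ltbp2 by 0.84 (adjusted p = 0.00528). Tgfbi, a TGF-β induced matrix protein, rose by 0.71 (adjusted p = 0.00632), but its call was lost without RDF replicate 1 (adjusted p = 0.0556). All 7 listed immediate early genes, which respond to SRF and to cAMP signalling, rose. Egr1 went from 18.7 ± 0.318 to 79.6 ± 7.31 FPKM (difference 2.03, adjusted p = 0.000174 by limma). Egr2 rose by 1.64, Egr3 by 1.49 and Ier2 by 0.74 (adjusted p = 0.000678, 0.00129 and 0.00164 by limma). In DMSO, Egr2 and Egr3 averaged 0.961 and 0.353 FPKM, so they passed the filter only through their RDF values.

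Acta2, Tagln and Myl9 are also expressed by fibroblasts and muscle cells, so markers of these cells were set beside them. The summed level of 12 fibroblast markers was 36.6 and 34 FPKM in DMSO and 26.4 and 27.9 FPKM in RDF, lower with RDF as Acta2 and Tagln were. None of the 12 was at 0 in all samples, though Fap was at 0 in DMSO replicate 1 and RDF replicate 1. Of the 8 tested, 4 fell (Col1a1 by 1.76, Postn by 1.71, Col1a2 by 0.87 and Col5a1 by 0.57, all on the log2 scale, adjusted p = 0.000577, 0.00164, 0.00507 and 0.00974) and 2 rose, Dcn by 1.65 (adjusted p = 0.00112) and Prrx1 by 0.69 (adjusted p = 0.0124). The calls of Col5a1 and Prrx1 were lost without RDF replicate 1 (adjusted p = 0.0646 and 0.084) or RDF replicate 2 (0.0708 and 0.0693). Col1a1, Col1a2, Col5a1 and Postn were thus lower with RDF, as Acta2 and Tagln were, while Dcn and Prrx1 were higher. Postn averaged 0.69 FPKM in RDF and Prrx1 0.648 FPKM in DMSO, so each passed the filter only through the other condition. Col3a1, which did not pass the filter, averaged 0.829 FPKM in DMSO and 0.943 FPKM in RDF. Lum, also below the filter, averaged 0.0791 and 0.67 FPKM. Pdgfrb was at 1.51 and 1.9 FPKM and was not called (adjusted p = 0.241 by limma). The part that fibroblasts or feeder cells had in the Acta2 and Tagln values was not tested.

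**Figure D5:**
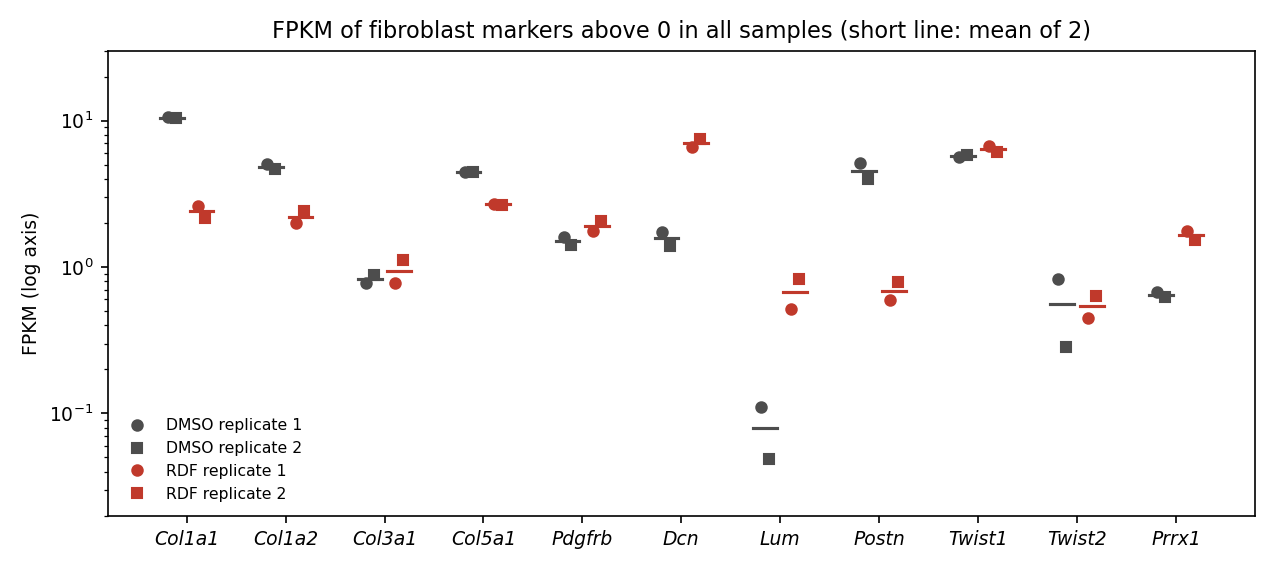
FPKM on a log axis of the 11 fibroblast markers above 0 in all samples, DMSO samples in grey and RDF samples in red, circles for replicate 1, squares for replicate 2 and short lines for the mean of 2. Col1a1, Col1a2, Col5a1 and Postn are lower with RDF, Dcn and Prrx1 are higher, and Twist1 is at 5.73 and 6.38 FPKM in the 2 conditions.

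Of the smooth muscle markers, Myh11, Lmod1, Myocd and Synpo2 were under 1 FPKM in all samples. Des averaged 11 FPKM in DMSO and 10.2 FPKM in RDF, and Smtn 9.49 and 8.32 FPKM. The summed level of 6 (Myh11, Lmod1, Des, Myocd, Synpo2 and Smtn) was 21.7 and 19.9 FPKM in DMSO and 19.4 and 18.3 FPKM in RDF, of which Des and Smtn made up most, and the defining myosin heavy chain Myh11 averaged 0.0407 and 0.0529 FPKM. Of the 2 tested, 0 changed by limma, also at an unadjusted p under 0.05. Sums of cardiac muscle markers (26.2 and 31 FPKM in DMSO, 40.6 and 35.9 FPKM in RDF), of primitive endoderm markers (7.22 and 5.84 FPKM, 9.88 and 10.2 FPKM) and of trophoblast markers (30.5 and 29.2 FPKM, 41.3 and 41.2 FPKM) were higher with RDF, as were Ctgf, Cyr61 and Amotl2. Myl7 made up most of the cardiac sum, with means of 21.3 FPKM in DMSO and 31.4 FPKM in RDF. The mean of Nkx2-5 was also higher with RDF (4.43 and 4.74 FPKM). Those of Actn2 (2.15 and 1.65 FPKM), Myh6 (0.445 and 0.356 FPKM) and Tnnt2 (0.255 and 0.115 FPKM) were lower. Gata4 (2.74 and 3.34 FPKM) and Gata6 (2.14 and 4.27 FPKM) made up most of the primitive endoderm sum. In that list, the means of Sox7, Dab2 and Foxa2 were also higher with RDF, while that of Sox17 was lower (0.649 and 0.568 FPKM). Of the 5 cardiac muscle, 6 primitive endoderm and 6 trophoblast markers listed, only 3, 2 and 4 were tested. The tested genes that rose in these 3 lists were Myl7 (0.55, adjusted p = 0.0364), Gata6 (0.78, adjusted p = 0.0428), and Hand1 (0.70, adjusted p = 0.00821) and Ascl2 (0.39, adjusted p = 0.0118), respectively. Of the tested genes 0 fell, also at an unadjusted p under 0.05 by limma. Ascl2 was not called without RDF replicate 1 (adjusted p = 0.0576) or RDF replicate 2 (0.0849), nor Hand1 without RDF replicate 2 (0.0708). Myl7 lost its call without RDF replicate 1 (0.179) or RDF replicate 2 (0.127), without a filter (0.0983) and without the trend (0.0632). Gata6 lost it without DMSO replicate 2 (0.0532), RDF replicate 1 (0.177) or RDF replicate 2 (0.171), and under 5 other settings (0.0502 to 0.114). The summed level of the 7 stem cell markers was 7547 and 7511 FPKM in DMSO and 4870.3 and 4409 FPKM in RDF, lower with RDF as Acta2 and Tagln were, with Dppa5a making up most of it. Dppa5a fell by 0.86, Tdgf1 by 0.70 and Pou5f1 by 0.35 on the log2 scale (adjusted p = 0.00421, 0.0028 and 0.0261), while Zfp42 rose by 0.85 and Sox2 by 0.26 (adjusted p = 0.000836 and 0.0187). The call of Dppa5a was lost without RDF replicate 2 (0.0674), that of Pou5f1 without DMSO replicate 1 (0.0535), RDF replicate 1 (0.0876) or RDF replicate 2 (0.171) and without a filter (0.0697), and that of Sox2 without DMSO replicate 2 (0.0567), RDF replicate 1 (0.109) or RDF replicate 2 (0.0942) and without the trend (0.0525). The part of these cell types in the values of the set was not tested.

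Finally, the genes whose values ran most like those of Cyr61, Acta2 and Tagln, the 3 genes with the largest differences, were listed by the distance between their deviations from their own means on the log2(FPKM + 1) scale over the 4 samples. Closest to Cyr61 were Dmrt1 (distance 0.0439), Nr6a1 (0.0479), Dusp6 (0.0555), Gata3 (0.057) and Spry2 (0.0621), beside a median of 1.12 over all genes tested. Closest to Acta2 was Postn (0.254), which measured 5.16 and 3.96 FPKM in DMSO and 0.595 and 0.784 FPKM in RDF, followed by Tagln (0.468), Hspa1b (0.479), Slc7a7 (0.485) and Tmem63a (0.505), beside a median of 1.82. Closest to Tagln were Psmb10 (0.267), Col1a1 (0.272), Tmem63a (0.278), S100a10 (0.279) and Postn (0.286), beside a median of 1.76. In these lists, Acta2 and Tagln shared Postn and Tmem63a. The distances rest on the same contrast that chose the set, and a small distance mainly marks a similar RDF difference. The 5 genes nearest Cyr61 had differences of 1.08 to 1.16, beside 1.13 for Cyr61. The medians lie near the size of each gene's own deviations (1.13 for Cyr61, 1.78 for Acta2 and 1.73 for Tagln), so they are no independent yardstick.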

How the data were processed

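Total RNA of 2 DMSO and 2 RDF samples of HG165 haESCs was made into stranded mRNA libraries. The authors deposited 1 table of FPKM per sample, estimated with Cufflinks on the mm9 annotation. The submitters' processing notes name TopHat2 2.0.14, Bowtie2 2.1.0 and Cufflinks 2.2.1 without their settings, and the use of strand in the estimates is not given in the sources used here. Samples were assigned to groups by their titles.

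FPKM were compared as log2(FPKM + 1). The 11733 symbols with a mean of at least 1 FPKM were fitted with limma 3.58.1 in R 4.3.3 (lmFit, eBayes with a mean-variance trend, no covariates), and p-values were adjusted by Benjamini-Hochberg over these symbols with a threshold of 0.05. The code was tested on simulated data. The 10 genes and all lists were chosen with earlier results of these data known. All 10 genes were named. From each list (other YAP/TEAD targets, Hippo and TEAD components, other SRF cytoskeletal targets, TGF-β targets, family members, immediate early genes, markers of other cell types), up to 4 called genes with the largest differences were named, together with the YAP/TEAD and SRF factors, all actins, calponins, transgelins and tropomyosins, and the 5 nearest genes by distance for 3 of the 10. Genes named outside this rule (Tgfbi, Sox2, Nanog, Esrrb, Col5a1, Prrx1, Fap, Des, Smtn, Myh11, Lmod1, Synpo2, Twist1, Nkx2-5, Actn2, Myh6, Tnnt2, Gata4, Sox7, Dab2, Foxa2, Sox17, Col3a1, Lum, Pdgfrb, Amot and the overlapping genes) were chosen after their values were seen. Some items that this rule selects are not reported here. Lists share members, such as 8 between family members and other SRF targets.

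Depth was estimated from low values of symbols with 1 transcript of at least 1500 nucleotides. Of these low values 43.5% to 48% lay within 0.1 of a whole fragment, against 20% for evenly spread values, so fragments are approximate and FPKM were not turned back into counts. Gene positions and transcript lengths are from NCBIM37, the build of mm9, and promoter windows from RefSeq GRCm38.p6. The CArG search with 1 mismatch was added after the windows were seen. Alternatives were a pseudocount of 0.1, no filter, a mean of at least 5 FPKM, median-ratio scaling, quantile normalization, no trend, a replicate block and leaving out each sample.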

Additional observations from a re-analysis of the deposited data

How the results depend on the processing

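The directions of the 8 expressed genes of the set were kept under every alternative that gave them a value (a mean of at least 5 FPKM gave none for Acta2, Myl9 and Cnn1), with differences of 0.86 to 0.94 for Ctgf, 1.08 to 1.18 for Cyr61, 0.92 to 1.04 for Amotl2, -3.01 to -1.42 for Acta2, -2.05 to -1.50 for Tagln, -1.13 to -0.30 for Myl9, 0.03 to 0.14 for Cnn1 and -0.16 to -0.02 for Tpm1. The lowest values of Acta2, Tagln and Myl9 came with a pseudocount of 0.1, which by construction enlarges differences of low genes. The set had 4 genes with RDF above DMSO (4 to 4 when 1 sample was left out) and 3 below (3 to 4). Quantile normalization gave 3 above and 4 below, median-ratio scaling or no filter 4 and 4, and a mean of at least 5 FPKM 3 and 1. Over all genes, 1561 were higher and 972 lower. Without a filter 942 and 606 were, and leaving out 1 sample gave 253 to 1121 and 195 to 731, the fewest without RDF replicate 2 (253 and 195) and RDF replicate 1 (358 and 235). Of the calls 61.6% were higher, against 53.1% with median-ratio scaling and 53.4% with quantile normalization. With 1 sample left out, other YAP/TEAD targets had 2 to 3 higher and 0 to 1 lower, Hippo and TEAD components 0 to 7 and 0 to 0, a list of SRF regulators not described here 1 to 5 and 0 to 1, other SRF targets 0 to 0 and 2 to 4, and TGF-β targets 0 to 1 and 5 to 7. Without a filter 2 Hippo genes were higher and 0 SRF regulators lower. A mean of at least 5 FPKM left 1 such regulator lower and 0 TGF-β targets higher. Without the trend 2 YAP/TEAD targets and 1 SRF regulator were lower, and with quantile normalization 1 Hippo component (Tead4) was. The cause of these changes was not tested, apart from the filters, which change how many genes are tested. A fit with the lone sample of a condition assumes that it varies like the others. Deviations of same-numbered samples correlated weakly (Pearson's r of 0.134 and a Spearman correlation of 0.114 over 11733 genes, themselves no independent replicates), so with 2 pairs the numbers are only shared. With the replicate block 1651 genes were higher and 1066 lower. Of 63 tested genes outside the set that were run under the alternatives, 44 were called and 25 of them lost the call under at least 1 alternative, and 0 reversed. Low genes (Ankrd1, Actg2, and Acta2 and Myl9 in RDF) are limited by depth.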
